A study of Oryza sativa Japonica Group with 3 samples.

Results

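The 8 ascorbate peroxidases of rice, APX1 to APX8, were followed in whole seedlings grown from seed implanted with a beam of nitrogen ions. They were chosen by locus identifier, 8 of the 55759 annotated loci, under a rule that uses no measured value. Earlier results of these data were known when the choice was made. The level of a locus is the sum over its transcripts of the deposited FPKM, a fragment count corrected for transcript length and library size. All 8 identifiers were found in the files, and for each the RefSeq gene table (assembly ASM3414082v1) lists a gene of the same APX name on the same chromosome.

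The groups are seedlings of the cultivar Xindao-18, all kept on wet filter paper at 28 °C under 12 h of light a day and taken after 96 h. The control library came from seed that was not implanted. The low fluence library mixed RNA of 2 bud pools, given 1 and 2 times 1e+17 ions per square centimetre, and the labels record no significant damage for it. The high fluence library mixed pools given 6 and 8 times 1e+17, recorded with significant damage. The labels write the exponent without a superscript, which was read from the context. Each pool held 50 buds of like height. With 1 library per group there is no spread between replicates, so no difference below carries a test, and every one is a difference between single libraries. In such bulk samples, fewer cells of a type and less RNA per cell cannot be told apart.

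Ascorbate peroxidases are haem enzymes that reduce hydrogen peroxide to water with ascorbate as the electron donor. Plants keep separate forms in the cytosol, in the membrane of peroxisomes and in plastids and mitochondria, so that peroxide can be removed near where it forms. The oxidised ascorbate is returned to its reduced form by monodehydroascorbate reductase, dehydroascorbate reductase and glutathione reductase, which together with the peroxidases make up the ascorbate-glutathione cycle. In rice, APX1 and APX2 are cytosolic, APX3 and APX4 peroxisomal, and APX5 to APX8 organellar. Among the organellar forms, APX7 is known as the form of the chloroplast stroma and APX8 as the form bound to thylakoids.

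FPKM tables hold no totals, and sequencing depth is therefore unknown. From the commonest ratio of values under 0.2 FPKM at loci with 1 transcript, the depth of the low fluence library was estimated at 0.497 times the control and that of the high fluence library at 1.36 times the control. Between 23652 and 25815 annotated loci were above 0 in a library. In what follows, ratios are of FPKM + 1, so that differences of low loci come out too small, a locus counts as measured when its 3 libraries average at least 1 FPKM, and a difference of at least 2-fold is the size that is counted. Of the 18934 measured loci, 7 are ascorbate peroxidases, and APX3 lay below the minimum. Against the label of whole seedlings, 4 of 6 listed loci of green tissue were measured. LOC_Os12g19394 was absent from the annotated loci of the files. LOC_Os11g47970 was listed at 0 in every library. The assembled unit beside LOC_Os11g47970, CUFF.3737, stood at 53.1 FPKM in the control, 122 after low fluence and 79.7 after high fluence. The listed root locus LOC_Os02g37190 stood at 3.04 FPKM in the control, 2.72 after low fluence and 9.71 after high fluence, and the endosperm glutelin locus LOC_Os01g55690 stayed under 1 FPKM in all 3 libraries.

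The cytosolic pair held most of the family's level, ahead of the peroxisomal and organellar groups. Summed over the 8 loci, the level was 630 FPKM in the control, 562 after low fluence and 508 after high fluence. The cytosolic pair held 60.9% of this sum in the control, 60.1% after low fluence and 59.7% after high fluence. The peroxisomal pair held 20.7%, 21.1% and 23.4% in the same order, and the organellar loci 18.4%, 18.8% and 16.8%. These shares are taken within a library and do not depend on how the libraries are scaled to each other. By this measure the division between compartments was nearly the same in the control and low fluence libraries, and the shifts there lay mainly within compartments. After high fluence the shifts lay between compartments as well. APX4, almost all of the peroxisomal sum, held 23.3% of the family there and 20.7% in the control, the largest change in share of any member.

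**Figure D1:**
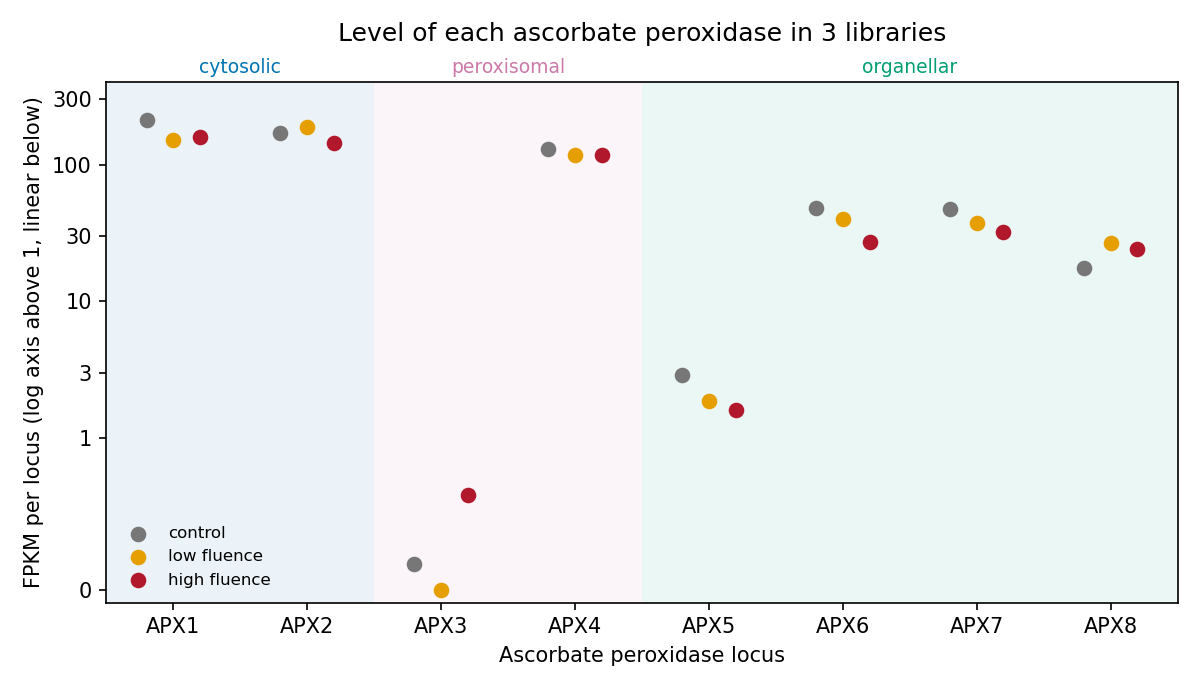
FPKM of each ascorbate peroxidase locus (y axis, logarithmic above 1 and linear below) in the control, low fluence and high fluence libraries, 1 point per library, with the compartments shaded. APX1, APX2 and APX4 lie above 100 FPKM in all 3 libraries, APX6, APX7 and APX8 between 17.6 and 48.3, and APX3 and APX5 below 3.

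None of the 7 measured loci differed by 2-fold in any comparison of the libraries as deposited. The share of all measured loci that differed so much either way was 10.6% for high fluence to control, 6.58% for low fluence to control and 8.18% for high to low fluence, so that a count of 0 among 7 lies close to the background. At 1.5-fold, 1 of the 7, APX6, was lower after high fluence than in the control, where 28.7% of measured loci differed either way. At that size none of the 7 differed between low fluence and control, against 17.6% of loci, or between high and low fluence, against 22.0%. With 0.1 FPKM added in place of 1, APX8 and APX5 passed 1.5-fold after low fluence, at log2 ratios to control of 0.59 and -0.60. APX5 also passed it after high fluence, at -0.81. The share of all loci past 1.5-fold was not computed with 0.1 FPKM added.

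Most members stood lower in the irradiated libraries by amounts under 2-fold. After high fluence 6 of the 7 were below control, where 58.2% of all measured loci were, and after low fluence 5 of 7, where 56.0% were. Between high and low fluence 6 of 7 were lower, against 55.7% of all loci, though median-of-ratios, upper-quartile and annotated-total scaling put APX4 slightly above. The annotated-total scaling also put APX8 above its low fluence level after high fluence, and APX4 above control. For high fluence to control, the log2 ratio had a median of -0.42 over the 7 members and -0.10 over all measured loci. For low fluence to control it was -0.27 over the members and -0.05 over all loci. Every measured member but APX5 averaged at least 10 FPKM. Over the 9265 loci that did so the medians were -0.15 for high fluence and -0.07 for low fluence to control. These directions rest on the libraries as deposited: setting every library's FPKM total to 1000000, which lifts the median of all measured loci after high fluence by 0.67 on the log2 scale, turned APX1, APX2, APX4, APX6 and APX7 above control after high fluence, put APX2 just below control after low fluence, and made every member it kept higher after high than after low fluence.

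The 4 members APX4, APX5, APX6 and APX7 were lower at each step from control to low to high fluence, a pattern shown by 28.6% of measured loci. For APX4 the second step was very small, at 118.3 FPKM after high fluence against 118.4 after low fluence. APX1 was lowest after low fluence, and APX2 and APX8 were highest there.

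APX1 and APX2 encode the cytosolic enzymes, and were the highest members in every library. APX1 (LOC_Os03g17690, chromosome 3) stood at 212 FPKM in the control, 151 after low fluence and 159 after high fluence. It was thus 1.41-fold below control after low fluence and 1.34-fold below after high fluence, with the irradiated libraries within 1.05-fold of each other. Of 9265 annotated loci that average at least 10 FPKM, 14.0% differed at least as much from control after low fluence and 39.2% after high fluence. APX2 (LOC_Os07g49400, chromosome 7) stood at 171 FPKM in the control, 187 after low fluence and 145 after high fluence. It was 1.09-fold above control after low fluence and 1.18-fold below after high fluence, differences that 67.6% and 61.7% of those 9265 loci matched or exceeded.

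The order of the cytosolic pair therefore changed from library to library. The ratio of APX1 to APX2 was 1.24 in the control, 0.806 after low fluence and 1.10 after high fluence. APX1 was 55.4% of the cytosolic sum in the control, 44.6% after low fluence and 52.3% after high fluence. APX2 was the highest of the 8 loci after low fluence and APX1 in the other libraries. Their summed level was 384 FPKM in the control, 338 after low fluence and 303 after high fluence, 1.14-fold below control after low fluence and 1.26-fold below after high fluence. Without replicates it cannot be said whether the reversal of order after low fluence exceeds the spread between samples of a group.

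The peroxisomal group was in effect APX4 alone. APX4 (LOC_Os08g43560, chromosome 8) stood at 130 FPKM in the control, 118.4 after low fluence and 118.3 after high fluence. It had the smallest difference of the 7 measured members after high fluence, 1.10-fold below control. Rescaling to the annotated FPKM total of the control put it at 0.06 above control on the log2 scale. APX3 (LOC_Os04g14680, chromosome 4) stood at 0.173 FPKM in the control, was listed at 0 after low fluence and stood at 0.629 after high fluence. These values are too low for any comparison, and the low fluence library, in which APX3 was listed at 0, also had the lowest estimated depth, whose part in that 0 was not tested. Summed, the peroxisomal pair stood at 130 FPKM in the control, 118 after low fluence and 119 after high fluence.

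With 1 FPKM added to each value, the organellar group held the measured member furthest below control after high fluence, APX6. It also held the one furthest above control in both irradiated libraries, APX8. Furthest below control after low fluence was the cytosolic APX1. The organellar sum was 116 FPKM in the control, 106 after low fluence and 85.5 after high fluence, 1.10-fold below control after low fluence and 1.35-fold below after high fluence. APX6 (LOC_Os12g07820, chromosome 12), an organellar enzyme, stood at 48.3 FPKM in the control, 39.8 after low fluence and 27.1 after high fluence. After high fluence it was 1.75-fold below control, the largest ratio of any measured member with 1 FPKM added to each value, and 12.6% of the 9265 loci differed as much. Between high and low fluence it was 1.45-fold lower, as much as 17.7% of loci.

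APX5 (LOC_Os12g07830, chromosome 12) follows APX6 in locus number, and in RefSeq no protein-coding gene lies between APX5 and APX6. It stood at 2.89 FPKM in the control, 1.87 after low fluence and 1.60 after high fluence. With the 1 FPKM added to each value, which shrinks the ratios of so low a locus, it lay 1.35-fold below control after low fluence and 1.49-fold below after high fluence. Of the 18934 measured loci, 27.5% after low fluence and 29.1% after high fluence differed from control at least as much as APX5. APX6 was 16.7 times APX5 in the control, 21.3 times after low fluence and 16.9 times after high fluence, so the neighbours kept a similar ratio while both stood lower in the irradiated libraries. Whether reads were shared between these neighbouring members was not tested, and no source used here says how such reads were assigned.

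APX7 (LOC_Os04g35520, chromosome 4), the stromal form, stood at 47.1 FPKM in the control, 37.4 after low fluence and 32.4 after high fluence. It was 1.26-fold below control after low fluence and 1.44-fold below after high fluence. APX6 and APX7 were close in every library, at a ratio of APX6 to APX7 of 1.02 in the control, 1.07 after low fluence and 0.837 after high fluence. APX8 (LOC_Os02g34810, chromosome 2), the thylakoid form, went the other way. It stood at 17.6 FPKM in the control, 26.5 after low fluence and 24.4 after high fluence, 1.48-fold above control after low fluence and 1.37-fold above after high fluence. After low fluence 9.62% of the 9265 loci differed from control as much as APX8, and after high fluence 35.9%.

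The make-up of the organellar group accordingly differed between libraries. APX8 was 15.1% of the organellar sum in the control, 25.1% after low fluence and 28.5% after high fluence. APX6 was 41.7% in the control, 37.7% after low fluence and 31.7% after high fluence. APX7 was 40.7%, 35.4% and 37.9% in the same order, and APX5 stayed between 1.77% and 2.49%. The ratio of APX8 to APX6 was 0.363 in the control, 0.666 after low fluence and 0.899 after high fluence, and that of APX8 to APX7 was 0.372, 0.710 and 0.752. These ratios within a library are the same under every scaling between libraries.

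**Figure D2:**
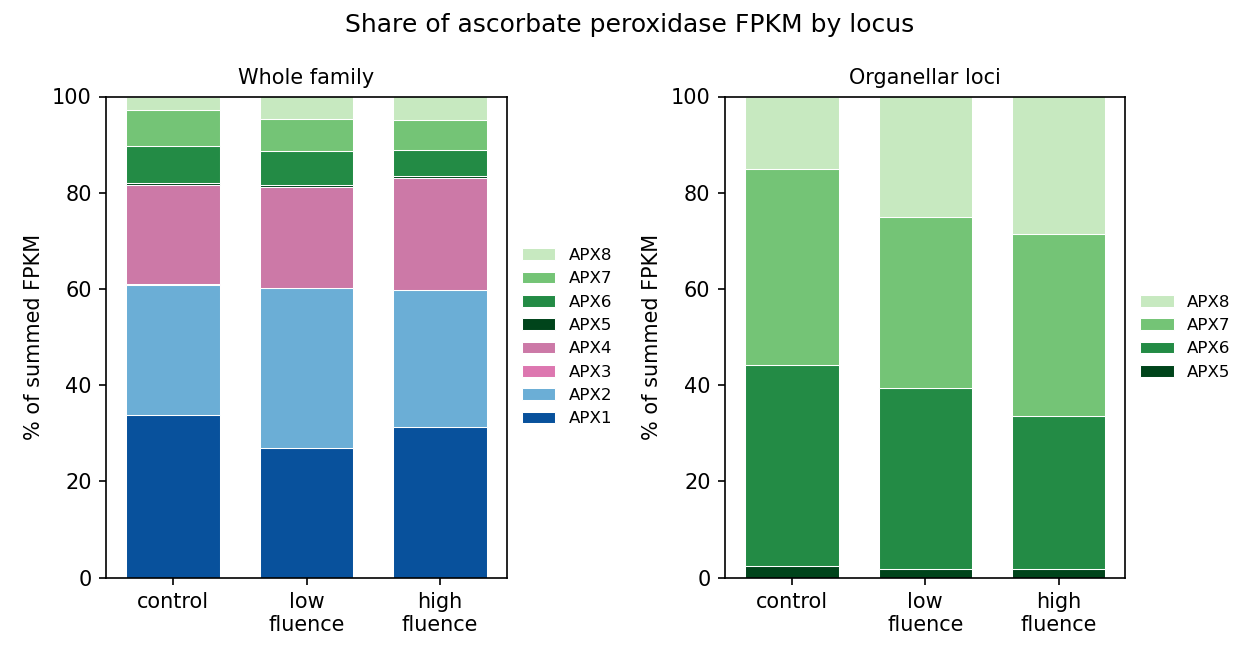
Share of the summed FPKM (y axis, in percent) held by each locus in the control, low fluence and high fluence libraries, over the whole family on the left and over the 4 organellar loci on the right. The compartments keep similar shares, while within the organellar loci APX8 makes up 15.1% in the control, 25.1% after low fluence and 28.5% after high fluence.

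The 4 measured loci of green tissue were, like APX8, above control after low fluence, and 3 of them were below control after high fluence. The Rubisco small subunit locus LOC_Os12g17600 stood at 164 FPKM in the control, 348 after low fluence and 306 after high fluence, and was like APX8 higher in both irradiated libraries. The antenna protein locus LOC_Os01g41710 stood at 173 FPKM in the control, 199 after low fluence and 4.97 after high fluence. The 5 green tissue loci in the files summed to 446 FPKM in the control, 683 after low fluence and 398 after high fluence. This sum leaves out the assembled units in the rows beside them. CUFF.4146, beside LOC_Os12g19381, stood at 592, 825 and 312 FPKM in the same order. CUFF.4138, beside LOC_Os12g19470, stood at 77.6, 126 and 50.7 FPKM. CUFF.3737, given above, was higher than control in both irradiated libraries. Whether these units held reads of the loci beside them was not tested. Of the 4 loci that were measured, 4 were above control after low fluence, where 56.0% of all measured loci were below it. After high fluence 1 was above and 3 below control. Of all measured loci 58.2% were below control there, so 3 of 4 lies close to the background. The part of green tissue in the organellar values was not tested.

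**Figure D3:**
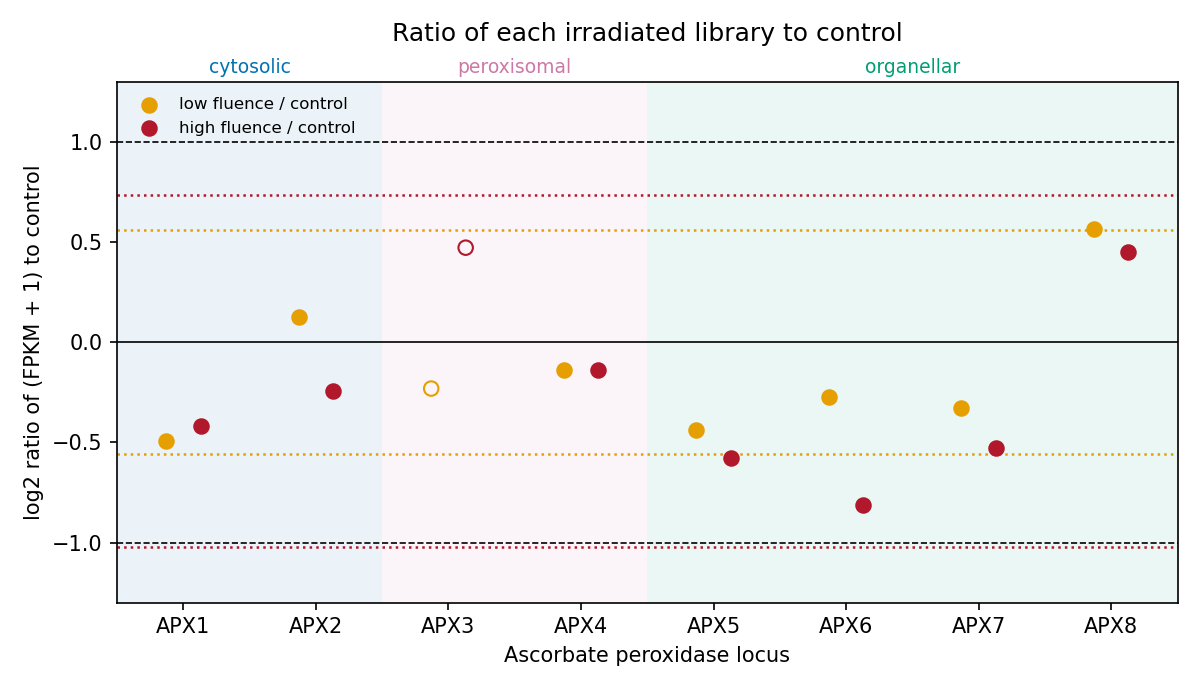
Log2 ratio of FPKM + 1 to control (y axis) for each ascorbate peroxidase, with low fluence and high fluence points side by side, and open points for APX3, which was below the minimum mean. Dashed lines mark 2-fold, and dotted lines mark the range from the 5th to the 95th percentile of 9265 annotated loci, in the colour of the comparison. All members lie inside the dashed lines, APX6 is lowest after high fluence at -0.81, and APX8 after low fluence, at 0.57, touches the upper dotted line at 0.56.

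Single transcripts carried most loci. The files list 17 transcripts for the 8 loci, with more than 1 at 4 loci, and 4 transcripts were at 0 in all 3 libraries. The first transcript held at least 99.1% of the level of APX1, APX2 and APX4 in each library. APX7 was the exception. Its first transcript, LOC_Os04g35520.1, stood at 43.6 FPKM in the control, 31.5 after low fluence and 26.5 after high fluence, or 92.4%, 84.2% and 81.8% of the locus. Its second, LOC_Os04g35520.2, stood at 1.96, 5.90 and 4.57 FPKM, or 4.16%, 15.8% and 14.1%. The 2 transcripts thus stood on opposite sides of control in both irradiated libraries. How the reads of APX7 were divided between its transcripts is an estimate of the authors' program, whose error is not given.

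Transcripts assembled from reads, which carry the prefix CUFF and no gene name, can divide the reads of a locus they overlap. All 8 members had such a unit in a row beside them, 9 units in all. The share of all annotated loci with such a unit beside them was not computed, so this count is not read as particular to the family. The unit in the row between APX6 and APX5, CUFF.3940, stood at 10.1 FPKM in the control, 17.8 after low fluence and 10.5 after high fluence. The unit CUFF.6857 beside APX1 stood at 15.4, 15.8 and 17.2 FPKM, and CUFF.8479 beside APX7 at 6.85, 8.28 and 7.18 FPKM. Beside APX8, CUFF.4737 stood at 10.9 FPKM in the control, 6.09 after low fluence and 6.80 after high fluence. The files give the units no position, so that row order alone puts them beside a member. Row order need not be genome order: the row before APX7, LOC_Os04g35520, holds LOC_Os04g04520. Loci beside units numbered within 10 of CUFF.4737 had a median locus number of 29220 on chromosome 2, against 34580 for CUFF.5484, the other unit beside APX8, and 34810 for APX8 itself. For the units beside APX2, only 4 of 36 such loci for CUFF.12588 and 22 of 36 for CUFF.12558 were on chromosome 7. Those on chromosome 7 had median locus numbers of 49465 and 49195 in that order, against 49400 for APX2. For CUFF.3940, 27 of 29 loci beside units of near number were on chromosome 12, with a median locus number of 8720 against 7820 for APX6. Whether any unit held reads of the member beside it was not tested. With all units beside them added, the log2 ratios of the organellar sum to control were -0.07 after low fluence and -0.34 after high fluence, against -0.13 and -0.44 without them. That of APX8 was 0.15 after low fluence and 0.25 after high fluence, against 0.57 and 0.45, and that of APX6 after high fluence was -0.62, against -0.81. With its units added, APX2 lay at -0.04 after high fluence, against -0.24, a shift that comes mostly from CUFF.12588, at 20.2 FPKM in that library. APX5, with the unit it shares with APX6, turned to 0.56 after low fluence, against -0.44.

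Among 9259 other annotated loci averaging at least 10 FPKM, 124, or 1.34%, had both log2 ratios to control within a distance of 0.1 of those of APX6. The nearest were LOC_Os10g37400, at 57.6 FPKM in the control, 47.5 after low fluence and 32.4 after high fluence, and LOC_Os02g07910, at 114, 94.9 and 65.0 FPKM. Likeness was measured over 3 libraries only, and the files give no names for these loci.

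Loci listed for the enzymes that recycle and make ascorbate were set beside the peroxidases. The lists were taken from general knowledge of the rice annotation, and the files pair none of them with names. For 4 of the 10 recycling loci and 3 of the 9 synthesis loci, RefSeq has a gene of the listed name on the same chromosome, and only these are given names here. All 19 were measured. Summed, the recycling list stood at 904 FPKM in the control, 795 after low fluence and 540 after high fluence. A large part of this sum was its highest locus, LOC_Os05g02530, at 375, 319 and 198 FPKM in the same order. After high fluence 1 of the 10 recycling loci differed at least 2-fold from control, where 10.6% of all measured loci did, so the count lies at the background. That locus, LOC_Os09g39380, was lower and stood at 160 FPKM in the control, 159 after low fluence and 77.5 after high fluence. It was named after its values were seen, and the assembled unit beside it, CUFF.14295, was also lower, at 94.4, 83.7 and 60.6 FPKM.

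Of the recycling list, 8 of 10 loci were below control after high fluence, against 58.2% of all measured loci, and 9 of 10 after low fluence, against 56.0%. The count after low fluence was 6 of 10 under median-of-ratios scaling and 5 of 10 under upper-quartile or annotated-total scaling. The list had a median log2 ratio of -0.41 after high fluence and -0.06 after low fluence. LOC_Os02g56850, a glutathione reductase, which renews the glutathione that the cycle oxidises, stood at 148 FPKM in the control, 116 after low fluence and 95.1 after high fluence, 1.55-fold below control after high fluence. LOC_Os02g47790 and LOC_Os02g47800, for which RefSeq lists MDHAR1 and MDHAR2 on the same chromosome, are monodehydroascorbate reductases, which reduce the radical that ascorbate peroxidase leaves. LOC_Os02g47800 stood at 20.4 FPKM in the control, 19.3 after low fluence and 18.7 after high fluence, and LOC_Os02g47790 at 6.22, 6.16 and 4.17 FPKM. LOC_Os08g05570, listed as MDHAR5, stood at 13.9, 11.6 and 10.7 FPKM.

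The synthesis list summed to 323 FPKM in the control, 286 after low fluence and 258 after high fluence, and none of its 9 loci differed 2-fold in any comparison with 1 FPKM added to each value. The shares over all measured loci were 10.6% for high fluence to control, 6.58% for low fluence to control and 8.18% for high to low fluence, so a count of 0 among 9 lies close to the background. Its median log2 ratio to control was -0.28 after high fluence and -0.14 after low fluence. LOC_Os10g28200 and LOC_Os11g37890, the GDP-mannose epimerases GME-1 and GME-2 of ascorbate synthesis, stood at 56.7 and 57.3 FPKM in the control, 44.5 and 52.1 after low fluence and 40.6 and 46.9 after high fluence. LOC_Os11g04740, listed as GLDH1, the galactonolactone dehydrogenase of the last step, stood at 5.41 FPKM in the control, 2.60 after low fluence and 4.42 after high fluence. The peroxidase median of -0.42 after high fluence thus lay beside -0.41 for recycling, -0.28 for synthesis and -0.10 for all measured loci. Over loci averaging at least 10 FPKM the median was -0.15. Setting every FPKM total to 1000000 turned the medians after high fluence to 0.34 for recycling and 0.53 for synthesis, beside 0.56 for all measured loci, and median-of-ratios scaling left 0 recycling loci at least 2-fold lower. The 3 lists share the same control library, and their difference from all loci was not tested.

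**Figure D4:**
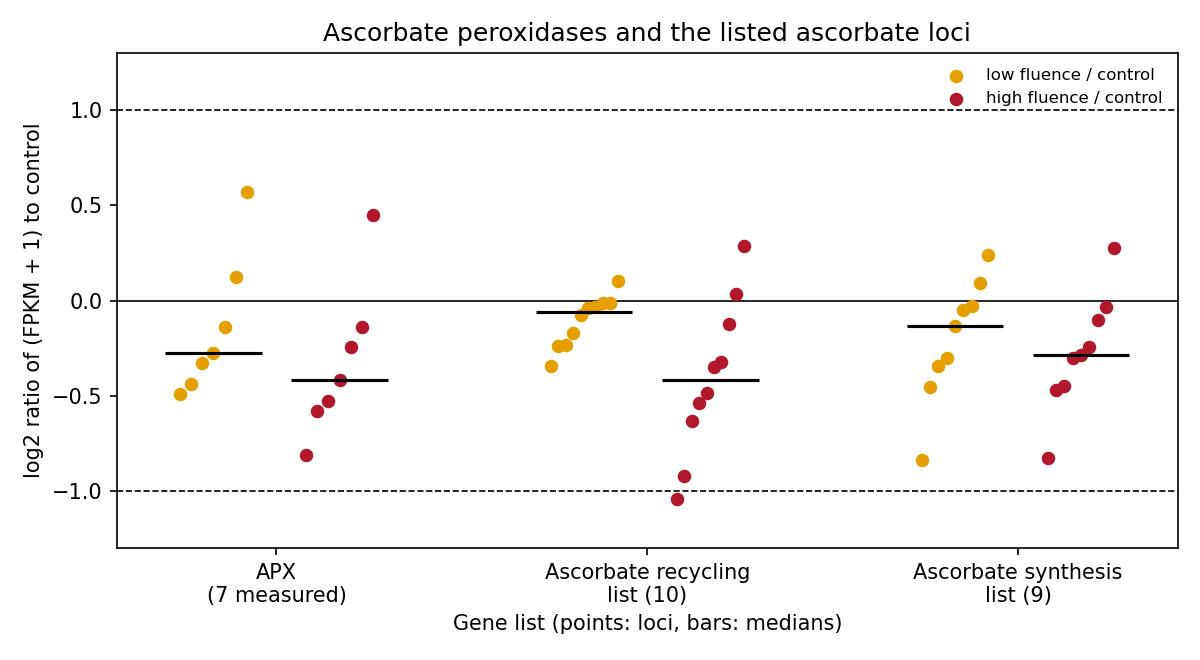
Log2 ratio of FPKM + 1 to control (y axis) for the 7 measured ascorbate peroxidases, the 10 loci of the recycling list and the 9 of the synthesis list, with low fluence left of high fluence, points for loci and bars for medians. The medians after high fluence are -0.42, -0.41 and -0.28, and 1 recycling locus lies past the dashed 2-fold line.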

How the data were processed

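For each library the authors deposited 1 table of FPKM per transcript, a unit taken from the column name per the file headers. The submitters' processing notes name the aligner TopHat2 2.0.5. The assembler, the FPKM estimator, the annotation, the build and whether strand was used are named by no source used here, so coordinates are not given and chromosomes are read from the locus identifiers. The 3 tables list the same 87523 transcripts, of which 66081 are annotated.

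FPKM was summed per locus, and libraries were compared without rescaling by the log2 ratio of (FPKM + 1), with Python 3.11.15, pandas 2.3.3 and numpy 2.4.6. The calculation was checked on ratios planted without noise. The formula returns such ratios by construction, so the check covers the arithmetic and not the error of single libraries. There is no depth, counting interval or p-value, since counts were not used here and each group is 1 library.

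The members and lists were chosen with earlier results of these data known. Named are all 8 members, listed loci that differ at least 2-fold or lead their enzyme class and have a reference symbol, and the 2 loci nearest in pattern to the member with the largest high fluence ratio; other loci named were chosen after their values were seen. Alternatives covered scaling, pseudocount, minimum mean, fold, transcripts and assembled units. Sequences are not shown.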

Additional observations from a re-analysis of the deposited data

Results flagged for a closer look

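Assembled units lie outside the loci compared above, and those beside the ascorbate peroxidases that had a mean of at least 1 FPKM and stood at least 2-fold above control are given here. Each was under 1 FPKM in the control and reached that mean only through irradiated libraries. Their rise over control was thus set by this choice and is not a result. The share of all assembled units that pass the same rule was not computed. CUFF.12588, in the row before APX2, stood at 4.88 FPKM after low fluence and 20.2 after high fluence, against 0.420 in the control. CUFF.12558, in the row after APX2, stood at 1.66 FPKM after low fluence and 2.46 after high fluence, against 0.308 in the control. CUFF.5484, in the row before APX8, stood at 3.95 FPKM after high fluence, against 0.951 in the control, and was listed at 0 after low fluence. The files give these units no gene and no position. Of the 36 loci beside units numbered within 10 of CUFF.12588, only 4 were on chromosome 7, that of APX2. For CUFF.12558 it was 22 of 36. The loci on chromosome 7 had median locus numbers of 49465 and 49195 in that order, against 49400 for APX2. Whether either unit lies beside APX2 was not tested. For CUFF.5484 all 35 loci beside units of near number were on chromosome 2, that of APX8. The part of the units in the values of APX2 and APX8 was not tested.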

How the results depend on the processing

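The 18 alternative shares of the compartments stayed within 1.5 times their values when the highest transcript stood for a locus or the assembled units beside it were added. Of 99 alternative ratios of compartment sums, 84 kept their direction and lay within 1.5-fold, as did 193 ratios of single members, while 38 did not. These counts include ratios that could not move. A change of the minimum mean leaves each single-member ratio as it was, which covers 24 ratios with no minimum and 18 with a minimum of 5 FPKM. With no minimum the compartment sums were also unchanged. Rescaling to an FPKM total of 1000000 gave log2 ratios of high fluence to control of 0.52 for the cytosolic, 0.72 for the peroxisomal and 0.41 for the organellar sum, and of high to low fluence of 0.84, 0.99 and 0.68. It made 1 member, APX8, at least 2-fold higher after high fluence than in the control, and 1, APX1, at least 2-fold higher at high than after low fluence. Rescaling to the FPKM total of the control, added after the data had been seen, gave 0.52, 0.73 and 0.42 for high fluence to control, 0.85, 1.00 and 0.69 for high to low fluence, and the same counts of 1 and 1. The FPKM totals over all transcripts that set these scalings were 3005651 in the control, 3317839 after low fluence and 1652751 after high fluence, against 607972, 587530 and 528840 over annotated ones. Rescaling to the annotated total of the control, also added later, gave 0.068 for the peroxisomal sum after high fluence to control. For high to low fluence that sum, at 0.01, gave -0.0015 with a minimum mean of 5 FPKM, which removes APX3, and -0.067 with the assembled units added. With 1 FPKM added to each value, 1 member, APX6, was counted at 1.5-fold after high fluence to control, and none at 3-fold. No depth is known, so low members such as APX3 and APX5 cannot be given an error.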
